A study of Mus musculus with 6 samples.

Results

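The receptors through which parathyroid hormone, calcitonin, vitamin D, oestrogen, glucocorticoid and growth hormone reach bone were followed at 3 sites of the adult mouse skeleton. The genes are Vdr, Pth1r, Calcr, Esr1, Esr2, Nr3c1 and Ghr, and they were taken by name, as every probe set that the annotation of the array gives to 1 of these symbols. This gave 17 of the 45101 probe sets on the array, for 7 of the 18194 genes with a named probe set. Expression was measured in skeletally mature male mice of 24 to 26 grams on 6 Affymetrix arrays, of which calvaria, mandible and ulna had 2 each. The methods give the mice as Black CD57, and the labels give no genotype, age or treatment beyond bone taken from different sites. The calvaria was described as freed of sutures and the ulna of soft tissue and epiphyses, while the mandible held its teeth. Even so, the signal of 8 skeletal muscle markers summed to 45555 to 46487 in ulna and 42022 to 42035 in mandible, against 5704 to 5820 in calvaria. The methods divide the mice of this pilot into a pair of groups, but they leave unsaid which mice each array stands for and whether their RNA had been pooled, so the spread on which the p-values rest is that between these arrays and may be technical. Precision is limited by the small number of arrays.

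Parathyroid hormone and calcitonin bind receptors of class B of the G protein coupled family at the cell surface, PTH1R on cells of the osteoblast lineage and the calcitonin receptor on osteoclasts, and both raise cyclic AMP. The receptors for vitamin D, oestrogen and glucocorticoid are nuclear receptors that bind DNA and change transcription in osteoblasts and in many other cells. The growth hormone receptor is a cytokine receptor that signals through JAK2 and STAT5 and drives the production of insulin-like growth factor 1, in liver and locally in bone.

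Vdr and Pth1r were highest in calvaria, intermediate in mandible and lowest in ulna, more than 4-fold apart between the ends of that order. The brightest of 3 Ghr probe sets was higher in mandible than at the other sites by less than 2-fold. For the other 2, no difference between sites reached a limma adjusted p under 0.05. The main probe sets of Esr1 and Nr3c1 differed by less than 2-fold throughout. Calcr and Esr2 were too dim to be tested. The values are MAS5 signal, an intensity with no fixed unit that the authors had brought to a trimmed mean of 100 per array (2% trim), where the array medians ran from 30.6 to 33.6. A probe set was tested where 2 or more of the 6 arrays gave it a signal over their median, which held for 25233 probe sets of 12326 genes. Differences were taken on the log2 scale after division by the array median. A call needed a change of 2-fold or more together with a limma adjusted p under 0.05, with Benjamini-Hochberg adjustment over all tested probe sets. Of the receptor probe sets 11 passed the filter, for Vdr, Pth1r, Esr1, Nr3c1 and Ghr, and 6 did not. No receptor probe set was shared with another gene symbol.

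**Figure D1:**
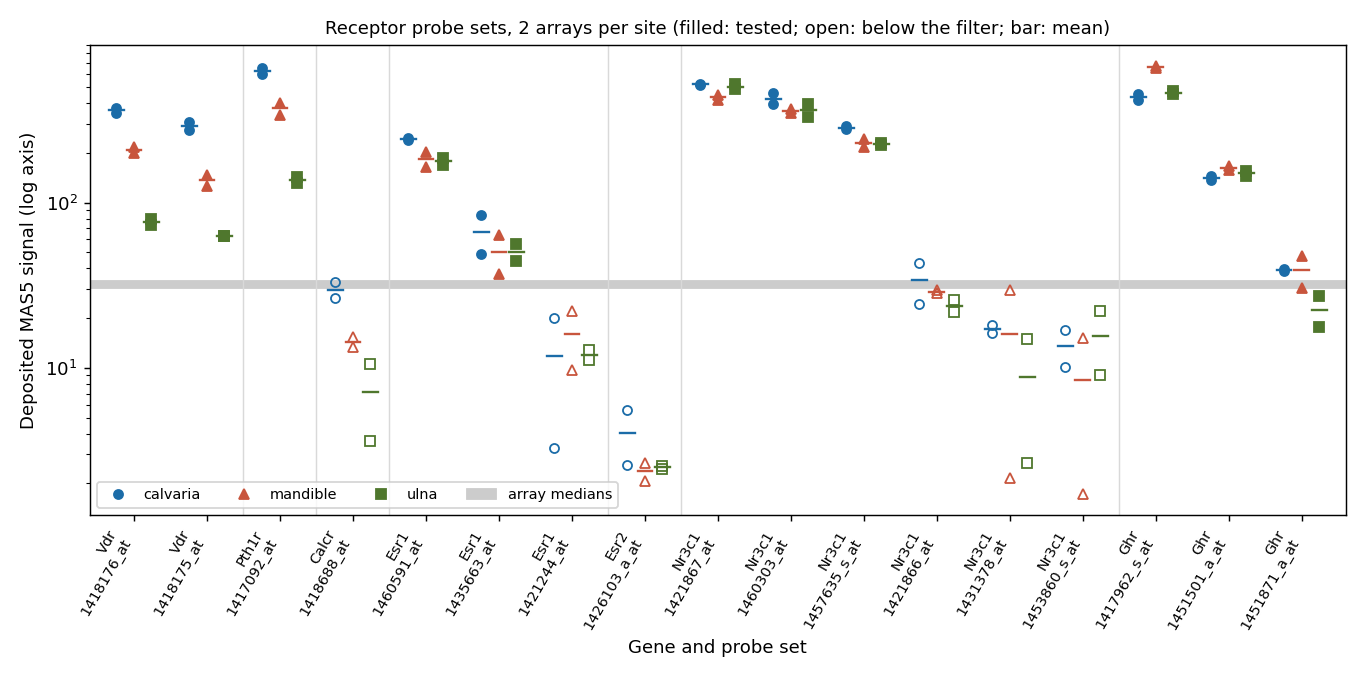
Deposited MAS5 signal (log axis) of the 17 receptor probe sets on each of the 6 arrays, with 1 point per array, bars for site means and a grey band for the array medians. Vdr and Pth1r fall from calvaria through mandible to ulna without overlap, while the probe sets of Calcr and Esr2 lie in or below the band.

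Pth1r, the receptor shared by parathyroid hormone and parathyroid hormone related protein, has 3 start sites in the RefSeq promoter table and Vdr has 1. Both genes are read from the minus strand of GRCm38.p6, Vdr at chr15:97854427-97908296 and Pth1r at chr9:110722085-110747145. The windows below run from 250 bases before to 50 bases after a start site and are shown because these 2 genes carried the called differences. Capitals mark matches to the GC box, GGGCGG or its reverse CCGCCC.
Vdr, chr15:97908247-97908546, minus strand: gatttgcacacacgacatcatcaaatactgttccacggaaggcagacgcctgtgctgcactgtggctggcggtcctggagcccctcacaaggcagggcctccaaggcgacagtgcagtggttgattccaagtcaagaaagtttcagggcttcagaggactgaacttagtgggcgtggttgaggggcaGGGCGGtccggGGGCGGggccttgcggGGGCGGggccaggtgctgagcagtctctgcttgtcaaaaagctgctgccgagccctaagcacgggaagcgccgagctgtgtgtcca
Pth1r, middle start site, chr9:110743637-110743936, minus strand: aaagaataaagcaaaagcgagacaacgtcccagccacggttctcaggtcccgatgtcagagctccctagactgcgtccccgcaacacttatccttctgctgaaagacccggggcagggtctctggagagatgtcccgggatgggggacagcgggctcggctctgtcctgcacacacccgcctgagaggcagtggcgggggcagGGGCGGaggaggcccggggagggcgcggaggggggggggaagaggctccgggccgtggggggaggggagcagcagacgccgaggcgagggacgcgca
Pth1r, downstream start site, chr9:110742561-110742860, minus strand: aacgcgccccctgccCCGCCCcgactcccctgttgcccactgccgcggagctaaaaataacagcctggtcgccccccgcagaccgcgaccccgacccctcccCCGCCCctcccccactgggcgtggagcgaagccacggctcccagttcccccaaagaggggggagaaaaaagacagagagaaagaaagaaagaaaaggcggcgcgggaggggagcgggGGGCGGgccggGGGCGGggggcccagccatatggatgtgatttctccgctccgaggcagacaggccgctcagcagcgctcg
The Vdr window held 3 GC boxes, within 63 bases upstream of the start site. The middle Pth1r window held 1 and the downstream window 4, and the window of the upstream start site, chr9:110747096-110747395, held no match. GC boxes stood in 35.7% of the 32851 mouse windows of this length. On both strands, the hexamer AGGTCA of nuclear receptors (16.3% of all windows), the RUNX core TGTGGT (16.8%), the AP-1 site TGANTCA (7.81%), the cAMP response core TGACGTCA (1.79%) and TATAAA (13.6%) were not among the letters of these 4 windows. The windows were richer in G and C, at 54.3% to 69.3%, than the median window at 52.7%. The upper quartile of all windows was 61.7%, above the Vdr window (61.3%) and the upstream Pth1r window (54.3%). Receptors without a call had such windows too, with 67.0% and 2 GC boxes at a Ghr start site and 70.0% and 1 GC box at a Calcr start site. No other readout of these promoters was analysed here.

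Vdr, the nuclear receptor for the active hormone of vitamin D, is measured by 2 probe sets. With probe set 1418176_at the signal was 375 and 348 in calvaria, 199.6 and 217 in mandible, and 73.4 and 79.9 in ulna. Each site lay clear of the other sites. The means were 361 ± 19.1 in calvaria, 209 ± 12.6 in mandible and 76.6 ± 4.56 in ulna (SD, n = 2). Calvaria was 4.47-fold above ulna, a log2 difference of 2.16 (SE 0.14, 95% interval 1.86 to 2.46, limma adjusted p = 6.55e-07). Mandible was 2.51-fold above ulna (log2 1.33, limma adjusted p = 1.79e-05). Mandible lay below calvaria by 0.83 on the log2 scale (interval -1.13 to -0.54, limma adjusted p = 0.00121), under the 2-fold limit.

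The other Vdr probe set, 1418175_at, gave the same order on separate probes. Its signal was 273 and 306 in calvaria, 147 and 126 in mandible, and 62.4 and 62.8 in ulna. The sites again did not overlap. The log2 difference was 2.13 between calvaria and ulna (limma adjusted p = 2.16e-06), 1.01 between mandible and ulna (limma adjusted p = 0.000373) and -1.12 between mandible and calvaria (limma adjusted p = 0.000419), and all 3 were called. The mandible to ulna difference lay at the 2-fold limit, and it fell short of a call without mandible replicate 1 (log2 0.90) and without ulna replicate 1 (log2 0.99).

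Pth1r is measured by 1 probe set, 1417092_at. Its signal was 602 and 650.0 in calvaria, 402 and 339.65 in mandible, and 132 and 143 in ulna. Both calvaria arrays stood above both mandible arrays, and these above both ulna arrays. The means were 626 ± 33.7, 371 ± 43.9 and 137 ± 8.08 (SD, n = 2). Calvaria was 4.32-fold above ulna (log2 2.11, SE 0.12, interval 1.85 to 2.37, limma adjusted p = 2.5e-07) and mandible 2.48-fold above ulna (log2 1.31, limma adjusted p = 6.87e-06). Mandible lay below calvaria by 0.80 on the log2 scale (interval -1.06 to -0.54, limma adjusted p = 0.000631), under the 2-fold limit. In whole bone, fewer cells of a type and less RNA per cell cannot be told apart, and this holds for every difference given here.

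Together 3 of the 11 tested receptor probe sets were called higher in calvaria than in ulna, both of Vdr and that of Pth1r, where 11.9% of all tested probe sets were called and 6.9% were called higher. The same 3 were called higher in mandible than in ulna, against 20.7% of all tested probe sets called and 9.36% called higher. Only Vdr 1418175_at was called between mandible and calvaria, lower in mandible, against 7.57% of all tested probe sets called and 3.48% called lower. These comparisons share arrays, so the counts are not independent. With limma 0 receptor probe sets were called lower than in ulna, where 4.95% of all tested probe sets were called lower in calvaria and 11.3% in mandible. At an unadjusted p under 0.05, 0 were lower in calvaria and 1 in mandible. Between mandible and calvaria 0 were called higher, against 4.09% of all tested probe sets, and 1 was higher at an unadjusted p under 0.05. By the adjusted p alone, whatever the fold, 3 receptor probe sets passed between calvaria and ulna (29.6% of all tested), 5 between mandible and ulna (43.4%) and 6 between mandible and calvaria (21.9%). The median log2 difference of the 11 probe sets was 0.28 between calvaria and ulna, -0.01 between mandible and ulna and -0.34 between mandible and calvaria. Over all tested probe sets these medians were -0.08, -0.13 and -0.09.

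**Figure D2:**
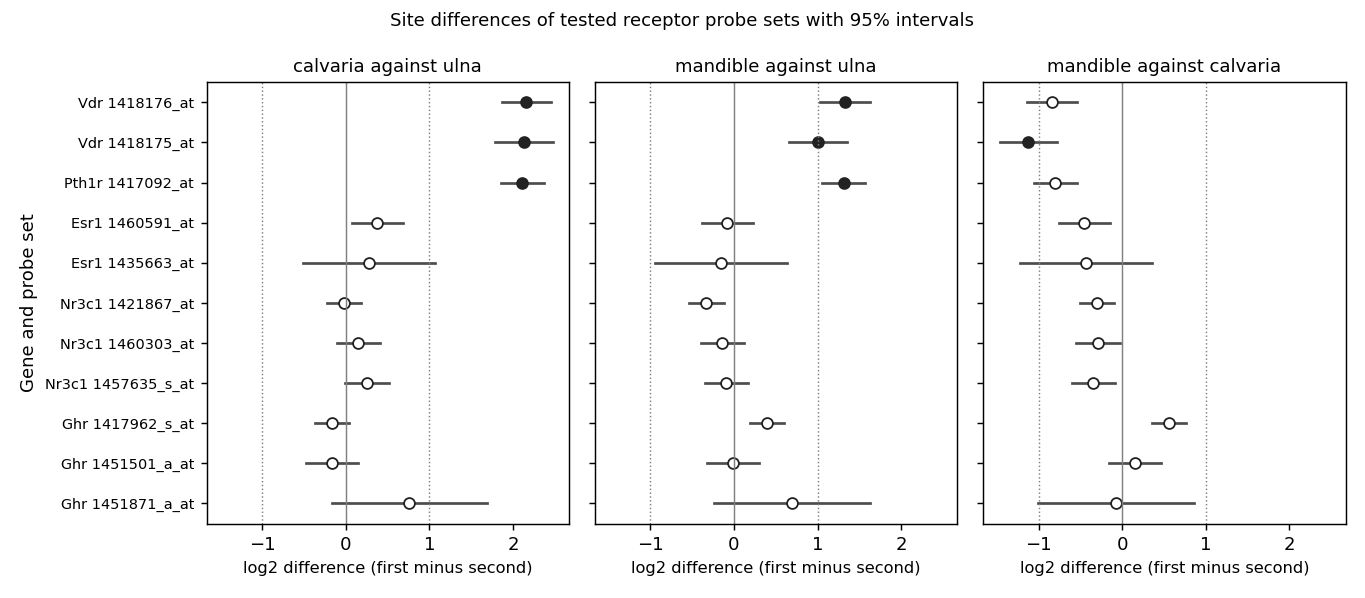
Log2 differences of the 11 tested receptor probe sets between sites (first minus second), as points with 95% intervals, with 1 panel for each comparison. Vdr and Pth1r lie between 1.01 and 2.16 above ulna in calvaria and mandible, while the probe sets of Esr1, Nr3c1 and Ghr stay within 0.76 of 0.

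Calcr, the receptor of calcitonin on osteoclasts, is measured by 1 probe set, 1418688_at, which lay above the array median on 1 array and was not tested. Its signal was 32.9 and 26.3 in calvaria, 15.5 and 13.4 in mandible, and 3.63 and 10.6 in ulna. The sites did not overlap, in the same order as for Vdr and Pth1r, but at signals where the spread is wide. With no filter on low signal the log2 difference between calvaria and ulna was 2.17 (interval 0.43 to 3.92, limma adjusted p = 0.0997). The other 2 differences had intervals on both sides of 0, from -0.65 to 2.84 for mandible against ulna and from -2.82 to 0.67 for mandible against calvaria.

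Esr1, the nuclear receptor known as oestrogen receptor alpha, has 3 probe sets. Probe set 1460591_at read 239.9 and 245 in calvaria, 203 and 164 in mandible, and 186 and 169.6 in ulna. Calvaria stood above the other sites, and mandible and ulna overlapped. Calvaria exceeded ulna by 0.38 on the log2 scale (interval 0.07 to 0.68, limma adjusted p = 0.0643), a difference that passed on values as deposited (limma adjusted p = 0.0347). Mandible lay below calvaria by 0.45 (interval -0.76 to -0.15, limma adjusted p = 0.0387), which did not pass without mandible replicate 2 (limma adjusted p = 0.211) nor without either calvaria array (limma adjusted p = 0.123 and 0.154), nor on values as deposited (limma adjusted p = 0.0617). Between mandible and ulna the difference was -0.08 (interval -0.38 to 0.23, limma adjusted p = 0.683), and its sign turned on values as deposited (log2 0.04).

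The other 2 Esr1 probe sets gave no order of sites. Probe set 1435663_at read 48.6 and 83.5 in calvaria, 37.1 and 63.5 in mandible, and 44.0 and 56.4 in ulna, so that all sites overlapped. Probe set 1421244_at lay below the array median on all 6 arrays, between 3.28 and 22.2. Esr2, or oestrogen receptor beta, is measured by 1426103_a_at, which read 2.07 to 5.53 over the 6 arrays, below every array median. No detection calls were used here, so such low readings give no level for Esr2.

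Nr3c1, the glucocorticoid receptor, has 6 probe sets, of which 3 were tested. Probe set 1421867_at read 524 and 516 in calvaria, 418 and 449 in mandible, and 522 and 483 in ulna. Both mandible arrays were below all 4 others, while calvaria and ulna overlapped. Mandible lay below ulna by 0.33 on the log2 scale (interval -0.53 to -0.12, limma adjusted p = 0.0143) and below calvaria by 0.31 (interval -0.51 to -0.10, limma adjusted p = 0.0378). Neither held on values as deposited, with limma adjusted p of 0.0868 and 0.0654, nor without mandible replicate 1, with limma adjusted p of 0.0868 and 0.181. The difference from ulna was also lost without ulna replicate 1 (limma adjusted p = 0.0908), and that from calvaria was lost on leaving out either calvaria array or the other mandible array (limma adjusted p of 0.0523 to 0.140). Between calvaria and ulna the interval ran from -0.23 to 0.18.

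The other 2 tested Nr3c1 probe sets had mandible signals that overlapped those of ulna. Probe set 1460303_at read 457 and 392 in calvaria, 368 and 345 in mandible, and 395 and 331 in ulna. Probe set 1457635_s_at read 291 and 277 in calvaria, 218 and 243 in mandible, and 231 and 222 in ulna. With both, mandible was below calvaria on all arrays, by log2 0.29 (limma adjusted p = 0.11) and 0.34 (limma adjusted p = 0.0604). The 3 untested Nr3c1 probe sets, 1421866_at, 1431378_at and 1453860_s_at, read between 1.73 and 43.1.

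Ghr, the growth hormone receptor, has 3 tested probe sets. Probe set 1417962_s_at read 415 and 456 in calvaria, 649 and 669 in mandible, and 454 and 469 in ulna. Both mandible arrays were above all others, and calvaria overlapped ulna. The means were 435 ± 29.1, 659 ± 14.4 and 462 ± 11.0 (SD, n = 2). Mandible was 1.32-fold above ulna (log2 0.40, interval 0.19 to 0.60, limma adjusted p = 0.00521) and 1.47-fold above calvaria (log2 0.56, interval 0.35 to 0.76, limma adjusted p = 0.00136). Between calvaria and ulna the interval ran from -0.37 to 0.04.

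The other Ghr probe sets differed less clearly between sites. Probe set 1451501_a_at read 137 and 144.65 in calvaria, 167 and 157 in mandible, and 145 and 155 in ulna, and after division by the array median mandible differed from ulna by log2 -0.01 (interval -0.32 to 0.30) and from calvaria by 0.16 (interval -0.16 to 0.47). Probe set 1451871_a_at read 39.5 and 38.7 in calvaria, 47.8 and 30.6 in mandible, and 17.6 and 27.1 in ulna. For this probe set calvaria exceeded ulna by log2 0.76, with an interval of -0.17 to 1.69 and a limma adjusted p of 0.206. Mandible exceeded ulna by log2 0.69 (interval -0.24 to 1.62, limma adjusted p = 0.213) and differed from calvaria by -0.07. Which Ghr transcripts each probe set reads was not analysed here.

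Over the 3 sites at once, limma's F test passed for 6 of the 11 receptor probe sets, against 45.9% of all tested probe sets. These were both Vdr probe sets, Pth1r, Esr1 1460591_at, Nr3c1 1421867_at and Ghr 1417962_s_at, and the adjusted p was lowest for Pth1r at 4.88e-07. The arrays of the sites did not overlap for 7 of 11 receptor probe sets between calvaria and ulna, 7 between mandible and ulna and 9 between mandible and calvaria. Among all tested probe sets the arrays did not overlap for 64.8%, 71.6% and 60.5%.

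Vdr and Pth1r followed nearly the same course over the arrays. After centring each gene's log2 values over the 6 arrays, they differed by a root mean square of 0.125, and each was the seventh nearest of 12325 genes to the other. Nearest to Vdr were Ndrg4 (0.0567), Sgms2 (0.0742) and Cpe (0.0896). Nearest to Pth1r were Ndrg4 (0.0723), Gask1b (0.0730) and Mamdc2 (0.113). These are descriptions over 6 arrays of 3 sites, in which any gene with the same steps between sites comes close.

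Marker lists of several cell types also differed between the sites, not all in the order of Vdr and Pth1r. Of all 12326 tested genes, 1040 were called higher in calvaria than in ulna and 1359 in mandible. All 6 osteoblast markers measured were called higher in calvaria and in mandible than in ulna. Their summed signal was 28748 to 32506 in calvaria, 28072 to 29094 in mandible and 6041 to 6270 in ulna. No marker lay below the array median on both arrays of a site. Relative to the mean of the osteoblast markers on the same array, Vdr stood at log2 -2.13 in calvaria and -2.12 in ulna, and at -3.02 in mandible. Pth1r stood at -1.34 in calvaria, -1.27 in ulna and -2.19 in mandible. Set against these markers, both receptors were thus level between calvaria and ulna and lower in mandible. Relative to the osteocyte markers instead, calvaria exceeded ulna by log2 1.26 for Vdr and 1.21 for Pth1r. There mandible differed from ulna by -0.08 and -0.10, so the outcome varied with the marker list. The part of the markers in the result was not tested.

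The 10 osteoclast markers, of cells that resorb bone and carry Calcr, summed to 17800 to 18183 in calvaria, 10627 to 10955 in mandible and 10534 to 11245 in ulna. Of these, 5 were called higher in calvaria than in ulna, with 0 called lower by limma and 2 lower at an unadjusted p under 0.05, Itgb3 (log2 -0.86) and Car2 (log2 -0.39). In mandible 3 were called higher and 1 lower than in ulna. Against calvaria 5 were called lower in mandible and 0 higher by limma, though each call was lost without at least 1 of the arrays. Of all 12326 tested genes, 1040 were called higher in calvaria than in ulna. In mandible 1359 genes were called higher and 1353 lower than in ulna, and 495 lower than in calvaria. Relative to the mean of the osteoclast markers on the same array, Vdr differed by log2 1.01 between calvaria and ulna and by -0.01 between mandible and calvaria. For Pth1r these differences were 0.96 and 0.02. Meningeal markers, 5 of 6 tested, summed to 2521 to 2962 in calvaria, 1230 to 1309 in mandible and 201 to 238 in ulna. Single meningeal markers went different ways, with Ptgds at 1661 in calvaria, 45.7 in mandible and 35.4 in ulna, and Crabp2 at 21.6, 285 and 5.35. Skeletal muscle markers, 8 of 8 tested, summed to 5704 to 5820 in calvaria, 42022 to 42035 in mandible and 45555 to 46487 in ulna. Tooth markers summed to 44.8 to 60.6 in calvaria, 52954 to 54275 in mandible and 69.8 to 79.8 in ulna. Osteocyte markers, 5 of 6 tested, summed to 6411 to 7117 in calvaria, 9238 to 9248 in mandible and 3676 to 3758 in ulna. Neuron and glia markers, 5 of 6 tested, summed to 1316 to 1388, 1074 to 1101 and 305 to 353 in the same order of sites. They too went different ways, with Mbp at 694 in calvaria, 935 in mandible and 235 in ulna, and Snap25 at 389, 0.68 and 17.8. Cartilage markers, 5 of 7 tested, reached at most 1256 and epithelial markers, 6 of 6 tested, at most 3570, both in mandible. Erythroid markers, 3 of 4 tested, summed to 4893 to 5195 in calvaria, 2816 to 3184 in mandible and 7354 to 7709 in ulna. B cell markers, 5 of 5 tested, summed to 1603 to 1843 in calvaria, 817 to 835 in mandible and 1619 to 1649 in ulna. In mandible 3 of 3 tested erythroid, 3 of 5 B cell and 3 of 7 neutrophil markers were called lower than in ulna, and the sums of neutrophil, macrophage and endothelial markers stayed within 2-fold between any arrays. All 7 tooth markers lay below the array median on both arrays of calvaria and of ulna. Fgf23, Matn3, Ihh, Slc22a6 and Hba-a1 lay below it on all 6 arrays. The part of these markers in the receptor differences was not tested.

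**Figure D3:**
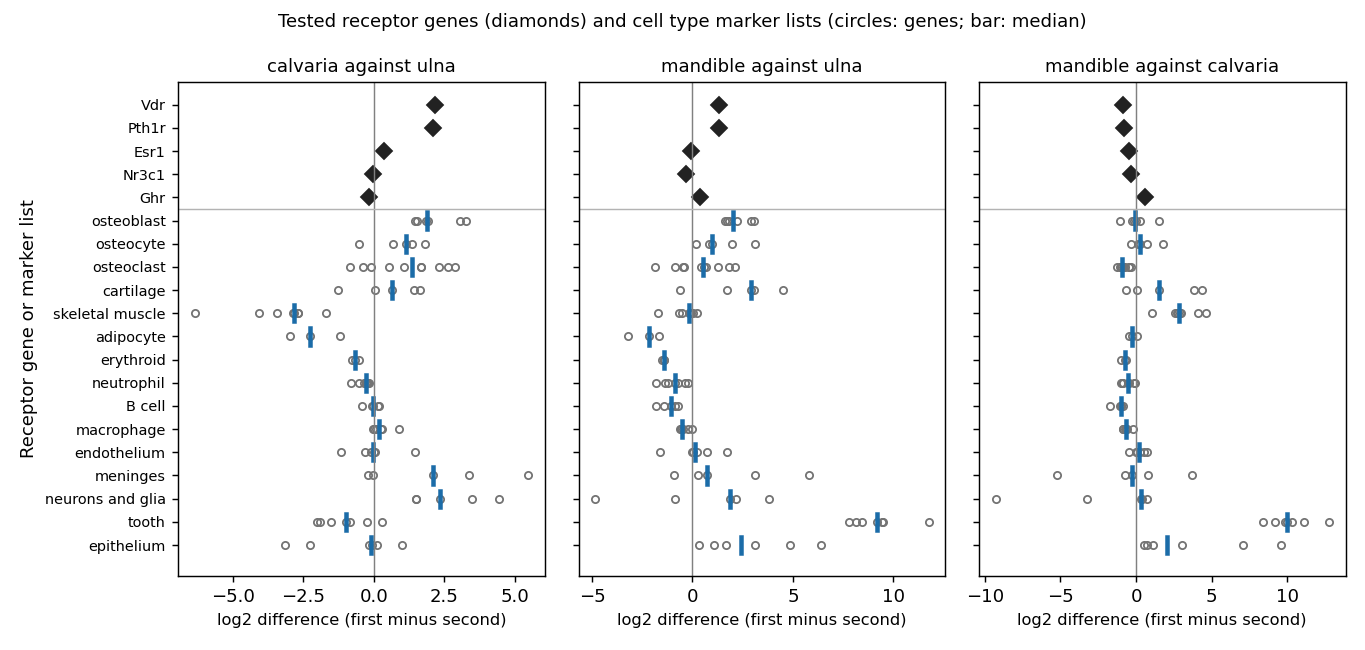
Log2 differences between sites of the 5 tested receptor genes (diamonds) above those of the cell type marker lists (circles for genes, bars for list medians), with 1 panel for each comparison. The osteoblast median, at 1.88 for calvaria against ulna and 2.02 for mandible against ulna, lies near Vdr and Pth1r in the first panel and above them in the second.

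Around these receptors, 97 genes of ligands, partners, signalling and targets were tested, of 135 that had a named probe set. In calvaria 10 were called higher and 3 lower than in ulna, or 13.4% against 13% of all tested genes. In mandible 13 were called higher and 10 lower than in ulna, or 23.7% against 22% of all tested genes. Between mandible and calvaria 4 were called higher and 1 lower in mandible, or 5.15% against 9.17%. As a whole the lists were called about as often as other genes against ulna. Calcb, Ramp3, Tnfsf11, Slc34a2, Esrrg, Rerg and Hsd11b2 had a site mean below the array medians, so their log2 differences against that site are not exact.

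Of all 12326 tested genes, 1359 were called higher and 1353 lower in mandible than in ulna, and 1040 higher and 566 lower in calvaria than in ulna. Of 24 tested genes of PTH receptor signalling, 0 were called higher and 4 lower in mandible than in ulna by limma. At an unadjusted p under 0.05, 3 were higher and 12 lower. The 4 were Arrb1 (log2 -1.21, limma adjusted p = 2.74e-05) and Arrb2 (log2 -1.68, limma adjusted p = 4.17e-07), the beta arrestins that desensitise PTH1R, Slc9a3r1 (log2 -1.30, limma adjusted p = 1.33e-05), a scaffold that binds its tail, and Adcy9 (log2 -1.13), an adenylyl cyclase. The Adcy9 call was lost without ulna replicate 2 (log2 -0.93). In calvaria 1 was called lower than in ulna and 0 higher by limma, with 3 higher and 9 lower at an unadjusted p under 0.05. The 1 called was Pde4d, a cyclic AMP phosphodiesterase named after its value was seen (log2 -1.12, limma adjusted p = 0.000141). The Pde4d call was lost without calvaria replicate 2 (log2 -0.93). Between mandible and calvaria limma called 0 of the 24, with 3 higher and 6 lower at an unadjusted p under 0.05. Arrb2 averaged 315 in calvaria, 188 in mandible and 554 in ulna. Gnas, which encodes the stimulatory G protein that couples PTH1R to cyclic AMP, averaged 3543 in calvaria, 3903 in mandible and 2973 in ulna, within 2-fold. Among ligands of PTH1R and other class B receptors 1 gene was tested, Calcrl, a relative of Calcr, which averaged 181 in calvaria, 85.3 in mandible and 161 in ulna. It was called lower in mandible than in calvaria (log2 -1.13, limma adjusted p = 0.000312) and than in ulna (log2 -1.03), the latter not on values as deposited (log2 -0.91) nor without ulna replicate 1 (log2 -0.94).

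Receptor activity modifying proteins change the ligand of the calcitonin receptor. Of these, Ramp1 averaged 332 in calvaria, 263 in mandible and 414 in ulna, and was lower in mandible than in ulna by log2 0.77 (limma adjusted p = 0.0002), under 2-fold. Of 6 tested ligands and partners, 1 was called higher in calvaria than in ulna and 2 in mandible. Of all 12326 tested genes, 1040 and 1359 were called higher in these comparisons. Calcb, which encodes a calcitonin gene related peptide, was higher in mandible than in ulna (log2 2.47, limma adjusted p = 0.0013), and its call in calvaria (log2 1.39) was lost on leaving out any 1 of the 6 arrays (limma adjusted p of 0.0522 to 0.230). Ramp3, the other one called in mandible (log2 1.51), averaged 41.4 ± 7.33 against 13.5 ± 2.80 in ulna (SD, n = 2) and was lost without either mandible array or without ulna replicate 1 (limma adjusted p of 0.0522 to 0.125).

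Of all tested genes 9.17% to 22% were called in a comparison. Among 8 tested genes of vitamin D metabolism and of the partners of VDR, 0 were called by limma in any comparison. At an unadjusted p under 0.05, 1 was higher and 2 lower in calvaria than in ulna, 1 higher and 3 lower in mandible than in ulna, and 1 higher in mandible than in calvaria. Pdia3, a disulphide isomerase also described as a membrane receptor of the hormone, averaged 1545 in mandible and 779 in ulna. Of 3 tested vitamin D target genes, Tnfsf11, which encodes the osteoclast factor RANKL, was called higher in calvaria than in ulna (48.3 ± 7.2 against 15.0 ± 3.3, SD, n = 2, log2 1.62, limma adjusted p = 0.0122). That call was lost without calvaria replicate 1 (limma adjusted p = 0.0921). Its call in mandible (log2 1.33) was lost without either mandible array or without ulna replicate 1 (limma adjusted p of 0.0570 to 0.104). Slc34a2, a phosphate transporter, was called higher in mandible than in ulna (log2 1.65, limma adjusted p = 0.00225) and than in calvaria (log2 1.87, limma adjusted p = 0.00222), but it passed the filter only through the mandible arrays, with means of 24.3 in calvaria, 91.1 in mandible and 27.0 in ulna.

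Among 8 tested oestrogen related receptors, enzymes and cofactors, 1 was called, Esrrg, an orphan receptor, lower in calvaria than in ulna (log2 -1.62, limma adjusted p = 0.0277). At an unadjusted p under 0.05, 0 of the 8 were higher and 3 lower in calvaria than in ulna. In mandible 1 was higher and 2 lower than in ulna. Nrip1, a cofactor, was among those lower in calvaria (log2 -0.70, limma adjusted p = 0.000974), by less than 2-fold. Esrrg passed the filter only through the ulna arrays, with means of 14.2 in calvaria, 26.2 in mandible and 41.1 in ulna. The call was lost without calvaria replicate 1 or either ulna array (limma adjusted p of 0.0779 to 0.145). Of the oestrogen targets, 1 of 5 was called, Rerg, a small GTPase. It averaged 169 in calvaria and 97.7 in mandible against 8.92 in ulna, where it lay below the array median, so that its fold is not exact. The limma adjusted p was 0.000273 for calvaria against ulna and 0.000657 for mandible against ulna. Of all tested genes 13% and 22% were called in these comparisons.

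Of 13 tested glucocorticoid targets, 2 were called higher and 1 lower in calvaria than in ulna, and 3 higher and 1 lower in mandible. Between mandible and calvaria 2 were higher in mandible, Pdk4 and Sgk1. Over all tested genes the shares called were 13%, 22% and 9.17% in these comparisons, in the order given. Pdk4, a kinase that restrains glucose oxidation, averaged 214 in calvaria, 945 in mandible and 482 in ulna, so that mandible lay above calvaria by log2 2.10 (limma adjusted p = 7.25e-08) and calvaria below ulna (log2 -1.25, limma adjusted p = 2.39e-06). Sgk1, a kinase, averaged 323, 881 and 399.8 and was also above calvaria in mandible (log2 1.41, limma adjusted p = 8.2e-06), while its call against ulna (log2 1.02) was lost without mandible replicate 2 (log2 0.89). Errfi1, a feedback inhibitor of EGF receptor signalling, was higher in calvaria than in ulna (log2 1.20, limma adjusted p = 1.74e-06). Mt2, a metallothionein named after its values were seen, was higher than in ulna at both sites (log2 1.18 in calvaria and 1.17 in mandible). Ddit4, an inhibitor of mTOR signalling, was higher in mandible than in ulna (log2 1.24, limma adjusted p = 1.04e-05). Lcn2, or lipocalin 2, was lower there (log2 -1.02), but under 2-fold on values as deposited (log2 -0.90), without mandible replicate 2 (log2 -0.98) and without ulna replicate 2 (log2 -0.99). Of 8 tested genes of glucocorticoid metabolism and receptor chaperones, 1 was called higher and 1 lower in mandible than in ulna. Hsd11b1, the enzyme that regenerates active glucocorticoid in cells, averaged 358 in calvaria, 209 in mandible and 422 in ulna. It was called lower in mandible than in ulna (log2 -1.15, limma adjusted p = 4.48e-05), but under 2-fold without mandible replicate 2 (log2 -0.95). Hsd11b2, which inactivates the hormone, was the one called higher (log2 2.11, limma adjusted p = 0.00967), and that call was lost without the same array (limma adjusted p = 0.0765).

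Growth hormone targets were called higher in calvaria than in ulna in 4 of 7 cases and in mandible in 3 of 7. Of all 12326 tested genes, 1040 and 1359 were called higher in these comparisons. Ghr itself was not called in either. Igf1, the growth factor that the hormone induces, averaged 904 in calvaria, 1574 in mandible and 312 in ulna (log2 1.46 and 2.22 against ulna, limma adjusted p = 5.25e-07 and 2.24e-08). Igfbp3, its main carrier, averaged 253, 879 and 32.1, and was called in all 3 comparisons (log2 2.91, 4.67 and 1.75). Socs2, a feedback inhibitor of the receptor, averaged 213 in calvaria, 279 in mandible and 94.8 in ulna (log2 1.09 and 1.44 against ulna). Igfbp5 was the other one called in calvaria (log2 1.02), though not without calvaria replicate 2 (log2 0.92) nor without ulna replicate 1 (log2 0.95). Of 12 tested genes of growth hormone signalling, Irs1 and Socs2 were called higher than in ulna at both sites, Irs1 by log2 1.19 in calvaria and 1.61 in mandible. Sirpa, a membrane protein that recruits tyrosine phosphatases, was called lower in mandible than in ulna (log2 -1.74, limma adjusted p = 2.51e-07). At an unadjusted p under 0.05, 3 of these 12 signalling genes were higher and 6 lower in calvaria than in ulna. In mandible 3 were higher and 7 lower than in ulna. The median log2 difference of the 12 was -0.33 in calvaria and -0.50 in mandible, against -0.05 and -0.08 over all tested genes.

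**Figure D4:**
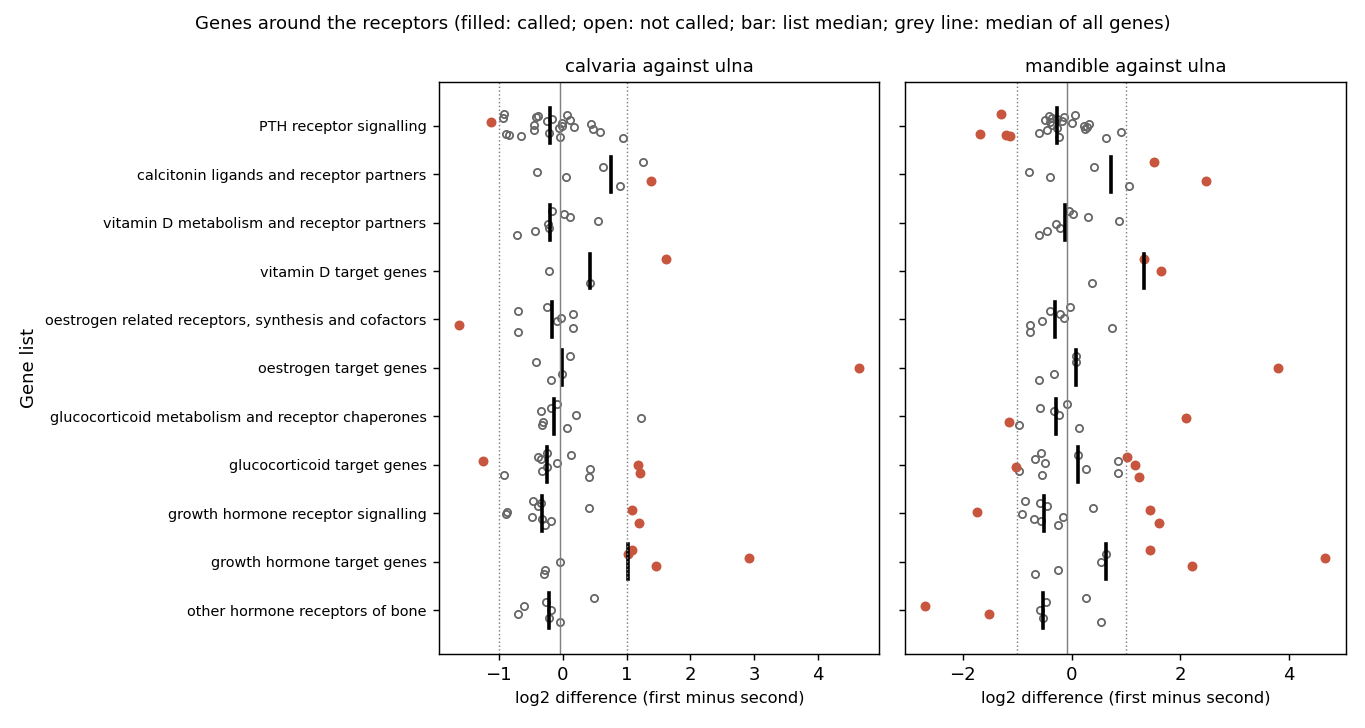
Log2 differences between sites of the tested genes of the lists around the receptors (filled circles called, open circles not called, bars for list medians, grey line for the median of all genes), with 1 panel for each comparison against ulna. Growth hormone targets have the highest median for calvaria against ulna, at 1.02. For mandible against ulna they stand at 0.63, and the 3 vitamin D targets have the highest median, at 1.33. The median of PTH receptor signalling lies below 0 in both panels, at -0.20 and -0.27.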

How the data were processed

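The deposited value of a probe set on an array is its signal intensity from MAS5, as named in the submitters' processing notes, with a trimmed mean of 100 per array (2% trim). All 6 columns were used. Probe sets were named from the platform annotation: 34958 had 1 symbol, 932 several and 9211 none, and 64 controls were left out. Signals were divided by the median of their array, and probe sets above the median on at least 2 arrays were tested (55.9%). Site means of log2 values came from 1 fit over all 6 arrays with a variance trend (R 4.3.3, limma 3.58.1). Calls needed an adjusted p under 0.05 and 2-fold. The fit was tested on simulated data. A gene was represented by its brightest tested probe set. Arrays of the same site had a median SD of 0.138 (log2). Correlations between arrays were 0.952 to 0.956 within sites and 0.797 to 0.862 between sites.

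The receptors, lists and tests were chosen with earlier results of these data known. Open to naming from each list were the 3 genes of highest mean and up to 4 called genes of largest change, of which the text names some, and for each called receptor the 3 genes nearest to it. Lists covered class B receptors, PTH signalling, calcitonin partners, vitamin D metabolism and targets, oestrogen related genes and targets, glucocorticoid metabolism and targets, growth hormone signalling and targets, and other hormone receptors of bone. Some listed genes were not analysed here. Markers covered osteoblasts, osteocytes, osteoclasts, cartilage, skeletal muscle, adipocytes, blood and vessel cells, meninges, neurons and glia, tooth and epithelium. Promoter windows came from RefSeq on GRCm38.p6, and the build behind the arrays is not given in the sources used here. Alternatives were other scalings, filters, a fit of the 4 arrays compared, a replicate block, an added offset of 0.25, variances without trend or without moderation, each array left out, the adjusted p alone and other choices of probe set. Python 3.11.15 with matplotlib 3.10.9 drew the plots.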

Additional observations from a re-analysis of the deposited data

How the results depend on the processing

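The counts of called receptor probe sets kept within 1.5 times of those reported in 114 of 117 recomputed values. The exceptions came with the adjusted p alone, without the 2-fold limit, when 1 probe set was lower in mandible than in ulna (0 with it), 1 higher in mandible than in calvaria (0 with it) and 5 lower (1 with it). Leaving out each array in turn kept 3 higher in calvaria than in ulna, 2 to 3 higher in mandible than in ulna and 1 lower in mandible than in calvaria, while the F test count went from 6 to between 4 and 5. Differences of single genes near 0 changed sign in 10 of 276 recomputed values. For Nr3c1 between calvaria and ulna (log2 -0.02) the value became 0.0519 on values as deposited, 0.0493 with quantile normalization, 0.0316 with scaling to the 75th percentile and 0.13 as a mean over probe sets, and ran from -0.0719 to 0.0230 on leaving out an array (positive without ulna replicate 1). For Ghr between calvaria and ulna (log2 -0.16) the mean over probe sets was 0.15. For Esr1 between mandible and ulna (log2 -0.08) the value was 0.0387 as deposited, 0.0725 with quantile normalization and 0.0259 with the 75th percentile, and ran from -0.23 to 0.0687 on leaving out an array (positive without mandible replicate 2). Replicate numbers were not treated as pairs. Deviations of equal numbers correlated at -0.01 to 0.01 between sites, which cannot exclude shared mice, as the mice behind each array are not stated. With replicate numbers as a block the receptor counts stayed at 3, 3 and 1 and all calls went from 2991, 5224 and 1909 to 2929, 5183 and 1848. Scaling by the median shifted the median of all tested probe sets between mandible and ulna to -0.13 from -0.02 as deposited. With 2 arrays per site and no detection calls used, signals near or below the array median limit what can be read for Calcr, Esr2 and the dim probe sets of Esr1 and Nr3c1.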

Other observations

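Other hormone receptors of bone were tested in 7 cases, of which 2 were called lower in mandible than in ulna and 0 higher by limma. At an unadjusted p under 0.05, 1 was higher and 4 were lower. Of all 12326 tested genes, 1353 were called lower in this comparison. Lepr, the leptin receptor, averaged 181 in calvaria, 106 in mandible and 279.6 in ulna, and lay below ulna in mandible by log2 1.52 (limma adjusted p = 1.24e-05). Pparg, the nuclear receptor of adipocyte differentiation, was the other one (log2 -2.69), with 23.9 ± 26.5 in mandible against 88.2 ± 2.33 in ulna (SD, n = 2), and its call was lost without either ulna array (limma adjusted p of 0.0540 and 0.0598). Adipocyte markers summed to 2328 to 2339 in calvaria, 1817 to 1856 in mandible and 5725 to 5977 in ulna, with 3 of 5 tested and none at 0, and their part in these differences was not tested. Igf1r, the receptor of insulin-like growth factor 1, averaged 729 in calvaria, 1123 in mandible and 708 in ulna, within 2-fold at all sites.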
